A study of Mus musculus with 8 samples.

Results

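The 30 Mb of mouse chromosome 1 between 30 and 60 Mb (GRCm38) carried 3761 of the 265968 listed H3K27me3 regions of the series, and the set of libraries with the higher values was mostly one set before 50 Mb and mostly the other after it. The members are every listed region whose file start lies in that interval, whatever its p, and they were split at 50 Mb into 2266 regions before and 1495 after. The interval and its split were chosen by the 6 library values themselves, because an earlier look at those values had shown the lean changing here, so the difference between the sides is a description and no test of it was run. Just outside the interval, the last listed region below 30 Mb ended at position 26688100 and was higher in the first set, at 315, 183 and 292 against 132, 200 and 177 in the authors' deposited table. The first region inside, at 30773551, was higher in the second set, at 79, 94 and 62 against 178, 118 and 111 in the authors' deposited table, although 18 of the 24 regions from 30 to 31 Mb were higher in the first set. The last region inside ended at 59622200 and the first beyond began at 60581901, and both were higher in the first set.

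H3K27me3 is trimethylation of lysine 27 on histone H3, written by the EZH enzymes of Polycomb repressive complex 2, and it marks genes held silent in a cell type, often as short peaks over CG-rich promoters or as broad domains over inactive genes and the land between them. NNMT, nicotinamide N-methyltransferase, spends the methyl donor S-adenosylmethionine on nicotinamide, and histone methylation draws on the same donor. In fibroblasts the mark typically covers genes of other lineages, such as neural, immune and germ cell genes.

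The cells were 3T3, an immortalised mouse embryonic fibroblast line, carrying either a control construct or a construct overexpressing NNMT. Each construct had 3 immunoprecipitated libraries, called biological replicates by the submitters, and 1 input library. All cells spent 48 h in DMEM with 10 µM methionine and 10% dialyzed serum, and chromatin was fixed with 1% formaldehyde and cut with micrococcal nuclease. Every library came from this single line, and the labels name neither the promoter of the construct nor the number of clones.

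Each listed region carries 3 values for one set of libraries and 3 for another, called here set 1 and set 2 in the order listed. Which set is NNMT is not stated, so no direction below is tied to the construct. Values of single regions are the authors' and sums over windows and genes were computed from them. Each set 1 library was divided by each set 2 library, or the reverse, and a ratio is followed by the lowest and highest of these 9 quotients. A region or sum is called separated if the lowest library of the higher set still exceeded the highest library of the lower set. Depth is unknown because library totals are not in the table, and no label or header says whether the inputs entered the values, so a different amount of DNA and a different density of the mark cannot be told apart. The table holds only regions selected by its makers for a difference, so a gene without a listed region may still carry the mark. Of all 19999 named protein-coding genes, 32.0% had a listed region in their span or within 2 kb of it. Among cell type markers, 0 of 10 fibroblast, 3 of 3 immune, 2 of 3 endothelial and 2 of 4 epithelial genes had one. Since the mark may be present without a listed region, these counts do not settle the cell type.

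Promoters that a listed region reaches are shown here because they place the mark relative to the start sites of the genes described below. The sequences are RefSeq's for GRCm38.p6, 300 bases each, from 250 before to 50 after the annotated start, written 5′ to 3′ on the gene's strand, with the bases inside a listed region in capitals. Before 50 Mb they are Arhgef4 (chr1:34677932-34678231, plus strand), Lonrf2 (chr1:38836638-38836937, minus strand) and Chst10 (chr1:38898111-38898410, minus strand), and each one's region was higher in set 2.
Arhgef4: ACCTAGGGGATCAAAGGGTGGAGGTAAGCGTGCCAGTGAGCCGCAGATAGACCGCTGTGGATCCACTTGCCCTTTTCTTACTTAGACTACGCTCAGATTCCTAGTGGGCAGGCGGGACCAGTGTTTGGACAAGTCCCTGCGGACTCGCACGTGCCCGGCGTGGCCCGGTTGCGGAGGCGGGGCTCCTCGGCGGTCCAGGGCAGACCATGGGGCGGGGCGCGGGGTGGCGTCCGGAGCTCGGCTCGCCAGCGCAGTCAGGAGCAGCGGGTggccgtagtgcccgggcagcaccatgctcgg
Lonrf2: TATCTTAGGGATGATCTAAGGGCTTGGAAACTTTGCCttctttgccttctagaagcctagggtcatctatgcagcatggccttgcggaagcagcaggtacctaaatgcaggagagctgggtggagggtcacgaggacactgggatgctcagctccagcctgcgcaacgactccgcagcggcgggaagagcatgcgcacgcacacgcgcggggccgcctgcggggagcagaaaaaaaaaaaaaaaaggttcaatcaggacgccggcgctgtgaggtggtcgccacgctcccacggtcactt
Chst10: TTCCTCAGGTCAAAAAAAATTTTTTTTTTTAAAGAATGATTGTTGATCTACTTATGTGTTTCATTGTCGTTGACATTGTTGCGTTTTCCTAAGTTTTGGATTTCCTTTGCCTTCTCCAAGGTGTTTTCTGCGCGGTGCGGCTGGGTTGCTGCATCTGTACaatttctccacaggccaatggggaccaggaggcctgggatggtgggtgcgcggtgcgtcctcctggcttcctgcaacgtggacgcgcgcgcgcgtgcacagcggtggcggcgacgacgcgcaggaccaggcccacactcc
In Lonrf2 37 bases and in Chst10 160 bases, in both cases at the upstream end, lay in a listed region. These promoters hold 20 and 21 CG dinucleotides, and that of Arhgef4 holds 27. CG reads the same on both strands, and 43.5% of the 32851 promoters in the table hold at least 10.

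After 50 Mb the promoters shown are the annotated pair of Stat4 (chr1:51986898-51987197 and chr1:52007990-52008289, plus strand), which lay whole inside regions of opposite direction, and those of Mstn (chr1:53061390-53061689, plus strand) and Aox2 (chr1:58278076-58278375, plus strand).
Stat4 upstream start: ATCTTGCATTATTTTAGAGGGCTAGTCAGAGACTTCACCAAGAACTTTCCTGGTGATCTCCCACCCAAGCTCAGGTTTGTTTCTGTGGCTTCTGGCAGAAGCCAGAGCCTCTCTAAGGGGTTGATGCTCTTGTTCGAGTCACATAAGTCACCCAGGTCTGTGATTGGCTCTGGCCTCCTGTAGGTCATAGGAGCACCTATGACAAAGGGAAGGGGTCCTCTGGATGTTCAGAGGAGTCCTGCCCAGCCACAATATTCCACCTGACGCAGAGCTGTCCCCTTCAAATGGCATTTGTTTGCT
Stat4 downstream start: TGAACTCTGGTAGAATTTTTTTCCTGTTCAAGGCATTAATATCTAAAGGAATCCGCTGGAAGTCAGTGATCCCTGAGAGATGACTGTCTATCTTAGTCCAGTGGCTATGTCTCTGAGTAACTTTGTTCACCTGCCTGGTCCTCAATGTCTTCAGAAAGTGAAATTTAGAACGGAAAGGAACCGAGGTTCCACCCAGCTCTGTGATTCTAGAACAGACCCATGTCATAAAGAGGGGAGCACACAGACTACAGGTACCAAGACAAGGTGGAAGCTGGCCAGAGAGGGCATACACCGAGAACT
Mstn: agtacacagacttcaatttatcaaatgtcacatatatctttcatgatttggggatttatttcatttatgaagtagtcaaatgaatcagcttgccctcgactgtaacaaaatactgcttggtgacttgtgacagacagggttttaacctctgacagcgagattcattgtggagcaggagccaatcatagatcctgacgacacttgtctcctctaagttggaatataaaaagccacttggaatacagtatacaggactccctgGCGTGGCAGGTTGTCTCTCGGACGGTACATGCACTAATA
Aox2: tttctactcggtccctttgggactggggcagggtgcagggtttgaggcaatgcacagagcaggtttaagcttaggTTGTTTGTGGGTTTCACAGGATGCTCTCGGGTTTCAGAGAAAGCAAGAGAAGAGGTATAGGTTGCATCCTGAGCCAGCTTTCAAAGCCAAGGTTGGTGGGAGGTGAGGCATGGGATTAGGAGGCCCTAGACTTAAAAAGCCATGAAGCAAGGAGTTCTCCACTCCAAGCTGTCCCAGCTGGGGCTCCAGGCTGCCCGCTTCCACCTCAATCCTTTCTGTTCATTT
These 4 promoters are poor in CG, with 2, 4, 6 and 3 of them. The authors' deposited table gives 588, 585 and 632 in set 1 against 762, 735 and 664 in set 2 over the upstream Stat4 start. Over the downstream start it gives 565, 557 and 526 against 313, 296 and 384. Both regions were separated, in opposite directions, within 1 gene. The Mstn region was higher in set 2 with overlapping values, at 32, 9 and 23 against 39, 48 and 32 in the authors' deposited table. The Aox2 region was higher in set 1, at 111, 99 and 157 against 34, 74 and 79 in the authors' deposited table.

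Before 50 Mb, set 2 was higher in 1581 of the 2266 regions (69.8%), where 40.5% of all listed regions were. The lean was uneven on that side, with set 2 higher in 78.0% of 1462 regions from 30 to 40 Mb. From 40 to 50 Mb it was higher in only 54.9% of 804. After 50 Mb, set 1 was higher in 1389 of the 1495 (92.9%), where 59.5% of all listed regions were. Since the interval was chosen for this pattern, nothing is read from the gap to these background shares. Separated regions followed the same split. Before 50 Mb, 1089 were separated with set 2 higher and 392 with set 1 higher, where 24.7% and 40.5% of all listed regions were. After 50 Mb the counts were 46 and 1050. A ratio of 2-fold or more was found in 542 regions toward set 2 and 166 toward set 1 before 50 Mb, against 12.9% and 22.3% of all listed regions, and in 19 and 713 after it.

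Summed over the regions before 50 Mb, the set 1 libraries came to 266633, 269630 and 250857 and the set 2 libraries to 326848, 340124 and 327010. All 3 set 2 sums lay above all 3 of set 1, and set 2 was 1.26 times higher (pair range 1.21 to 1.36). After 50 Mb the set 1 sums were 218608, 219762 and 209051 and the set 2 sums 131463, 133003 and 133315, so that set 1 was 1.63 times higher (1.57 to 1.67). Per kb of listed region, both sets differed between the sides. Set 1 held 150 to 161 per kb before and 195 to 205 after, and set 2 held 195 to 203 before and 122 to 124 after. Over the whole interval the opposite leans nearly cancelled, at a set 1 over set 2 ratio of 1.03 (0.972 to 1.07) with overlapping libraries.

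**Figure D1:**
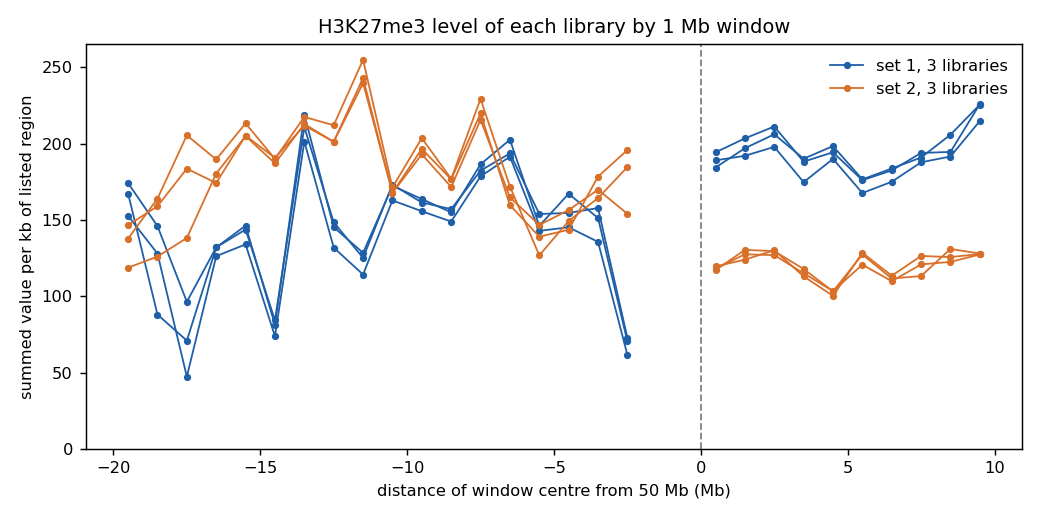
Summed value per kb of listed region (vertical axis) of each of the 6 libraries in 1 Mb windows, by distance of the window centre from 50 Mb in Mb, with set 1 in blue and set 2 in orange. To the right of the dashed line the 3 set 1 lines run above the 3 set 2 lines in all 10 windows, and to the left the order varies by window.

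Of the 20 windows of 1 Mb before 50 Mb, 18 held listed regions, and 13 of these had the larger sum in set 2 and 5 in set 1. In 11 windows the sums were separated with set 2 higher, in 2 with set 1 higher, and in 5 they overlapped. With the sets scaled to equal sums over all listed regions, 16 of the 18 leaned to set 2. All 10 windows after 50 Mb had the larger sum in set 1 and all 10 were separated. Their log2 ratios of set 1 over set 2 lay between 0.47 and 0.93, against −1.38 to 0.29 before 50 Mb, so the side after 50 Mb was the more even of the 2. Of single listed regions, 65.1% were separated over the whole series. The same share for 1 Mb windows is not given here, so nothing particular to this interval is read from the separated windows.

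Of the windows with more than 10 regions, those that leaned most to set 2 were 35 to 36, 38 to 39 and 47 to 48 Mb. The window from 32 to 33 Mb stood at 2.46 (1.43 to 4.35) toward set 2 on only 3 small regions. Between 35 and 36 Mb, 224 of 226 regions were higher in set 2, the sums differed 2.37-fold (2.22 to 2.59), and there is no named protein-coding gene. Most of this window is spanned by the longest run of neighbouring regions of 1 direction before 50 Mb, 273 regions with set 2 higher from 34899351 to 35950200. Between 38 and 39 Mb, the window of Lonrf2 and Chst10, set 2 was 2.01 times higher (1.87 to 2.23) and 8 of 130 regions were higher in set 1. The window from 47 to 48 Mb held 12 short regions, all higher in set 2, with a ratio of 2.61 (2.12 to 3.18). At the start of the interval, from 30 to 31 Mb, the sums of 2055, 1974 and 1801 in set 1 lay above 1401, 1626 and 1730 in set 2, a ratio of 1.23 (1.04 to 1.47) toward set 1.

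**Figure D2:**
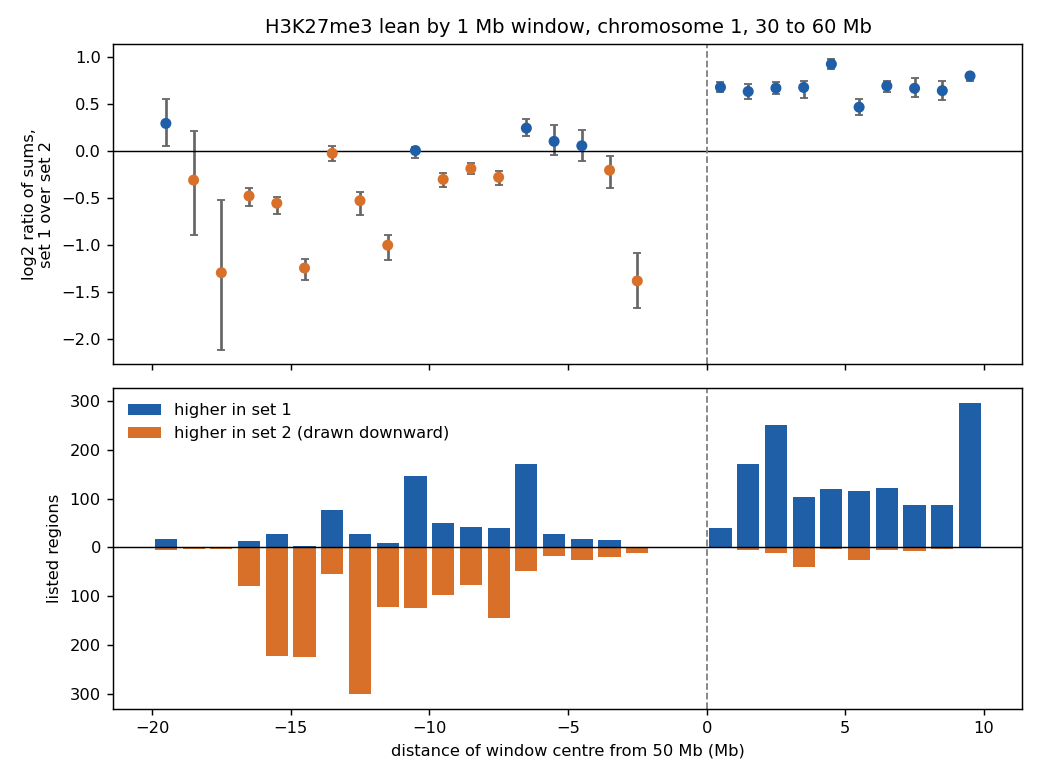
Log2 ratio of summed values, set 1 over set 2, in each 1 Mb window (upper panel, points, with bars from the lowest to the highest of the 9 library quotients), and number of listed regions by direction (lower panel, set 2 drawn downward), by distance of the window centre from 50 Mb in Mb. All 10 windows to the right of the dashed line sit above 0, 13 of 18 to the left sit below it, and the 2 windows nearest the line on the left are empty.

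The place of the switch depended on the width of the bins, each of which counted alike however few regions it held. With 1 Mb bins, the single split that best divided the bins, by share of regions and by log2 ratio alike, fell between the bins starting at 47 and 50 Mb, with the mean share higher in set 1 going from 31.7% to 92.5%. With 100 kb bins it fell lower, between the bins starting at 42.9 and 43 Mb by share (29.99% to 81.4%) and between 43 and 43.2 Mb by log2 ratio. The windows in between were mixed. From 43 to 44 Mb, 170 of 218 regions were higher in set 1 and its sum was 1.18 times higher (1.11 to 1.27). From 44 to 46 Mb the sets overlapped in both windows, from 46 to 47 Mb set 2 was 1.15 times higher (1.04 to 1.32), and the 12 regions past 47 Mb all leaned to set 2. The lean thus did not turn once at a sharp point, and the last return to set 2 lay just before an empty stretch.

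That stretch, from 47053500 to 50804151, was the widest in the interval without a listed region, 3.75 Mb long and with no named protein-coding gene inside. The 12 regions before it were all higher in set 2, with log2 ratios from −2.10 to −0.69, and the 12 after it all higher in set 1, from 0.72 to 1.89. They are small regions, with the 6 values of each adding up to between 31 and 943. The last region before the stretch had 4, 0 and 3 against 8, 10 and 7 in the authors' deposited table, and the first after it had 34, 31 and 38 against 14, 9 and 11. Both were separated. The next widest stretch, 1.26 Mb, began at 44515150 and holds Col3a1 and Col5a2, which encode fibrillar collagens made by fibroblasts, and Gulp1, an adaptor for engulfing dying cells.

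Lonrf2 (chr1:38793669-38836687), which encodes a RING and LON domain protein of the ubiquitin ligase type, had the strongest lean to set 2 of the 59 genes with a listed region. A gene was counted with every region in its span or within 2 kb of it. All 26 of its regions were higher in set 2, 25 of them separated, and they covered 75.9% of the gene. The set 1 libraries summed to 4413, 4614 and 3959 there and the set 2 libraries to 9888, 10699 and 10572. No set 1 library came near the lowest of set 2, and set 2 was 2.40 times higher (2.14 to 2.70). The longest region before 50 Mb lies here, at chr1:38815501-38830350, with 1810, 1930 and 1652 against 4138, 4290 and 4525 in the authors' deposited table. The Lonrf2 start site itself sits in a stretch of 1.3 kb without a listed region.

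Chst10 (chr1:38863867-38898177) encodes a sulfotransferase that caps the HNK-1 glycan, a carbohydrate of neural cell adhesion molecules. All 13 of its regions were higher in set 2, 12 of them separated, and they covered 89.0% of the gene. Their sums were 4802, 4928 and 4305 in set 1 against 9727, 10785 and 9790 in set 2, a ratio of 2.16 (1.97 to 2.51) with no overlap. Its largest region, at chr1:38868851-38878200, had 1205, 1178 and 1115 against 2630, 2714 and 2722 in the authors' deposited table. The region reaching its promoter was small and also separated, with 86, 67 and 39 against 144, 135 and 120 in the authors' deposited table. The start site lies in a stretch of 0.4 kb with no listed region, between that one and a region of 7700 bp that begins just downstream.

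The same lean ran on through the land around them. Of the 92 regions within 120 kb of the Chst10 start site, 88 were higher in set 2. Between the 2 genes lies a region of 10500 bp at chr1:38845951-38856450, with 1652, 1805 and 1570 against 3479, 3413 and 3262 in the authors' deposited table. Nms, the gene of the neuropeptide neuromedin S on the far side of Chst10, had 6 of 6 regions higher in set 2 and all separated, with a ratio of 1.85 (1.69 to 2.03). The lean ended before Npas2, the next gene with listed regions.

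**Figure D3:**
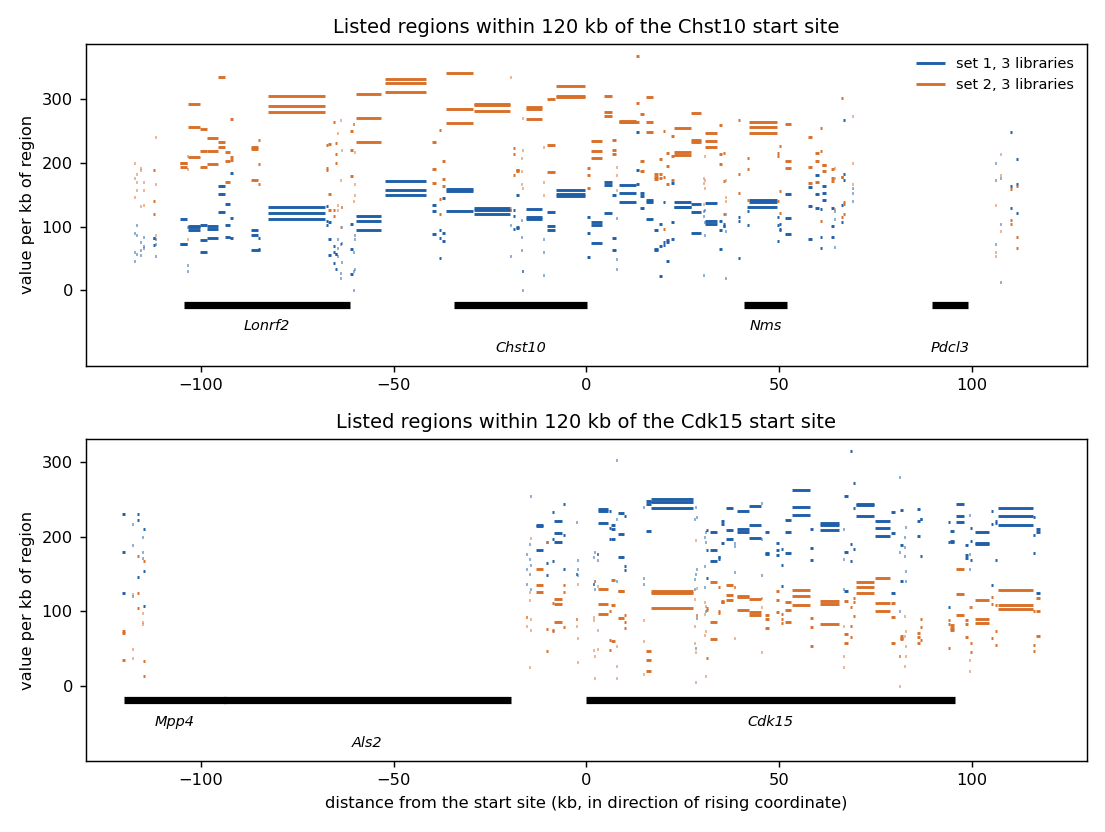
Value per kb of each listed region (horizontal dashes, 1 per library, set 1 in blue and set 2 in orange) by distance in kb from the start sites of Chst10 (upper panel) and Cdk15 (lower panel), with named genes as black bars. Set 2 is higher in 88 of 92 regions around Chst10 and set 1 in 84 of 84 around Cdk15.

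Before 50 Mb, 40 of the 101 named protein-coding genes (39.6%) carried a listed region, against 32.0% of all named genes. Of these 40, 26 had the larger sum in set 2, 25 with separated sums. How many of all genes lean or are separated is not given here, so nothing is read from these counts on either side. Neighbours such as Cfc1 and Prss40 share regions, and the genes are not independent. Arhgef4, a guanine nucleotide exchange factor, had 60 regions, of which 58 were higher in set 2. Its sums were 11506, 11364 and 10643 against 15852, 16768 and 15873, so the sets did not overlap, and set 2 was 1.45 times higher (1.38 to 1.58). Amer3, which encodes a binding partner of the APC protein, stood at 1.70 (1.55 to 1.91) with 14 of 14 regions higher in set 2. Slc40a1, the gene of the iron exporter ferroportin, had only 5 small regions, all separated. Its sums of 99, 110 and 117 against 224, 184 and 282 gave 2.12 (1.57 to 2.85).

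Other genes leaned the same way with smaller ratios than Lonrf2 and Chst10. Vwa3b had 63 of 66 regions higher in set 2 with a ratio of 1.56 (1.38 to 1.83), Cracdl 48 of 53 with 1.48 (1.38 to 1.65), and Tsga10, a gene of the sperm tail, 28 of 28 with 1.53 (1.48 to 1.59). Mgat4a, whose product branches N-glycans, had 30 of 36 and a ratio of 1.32 (1.23 to 1.43). Slc9a2, a sodium/proton exchanger of epithelia, had 45 of 47 and 1.44 (1.38 to 1.52). Cnga3, a channel subunit of cone photoreceptors, and Zap70, a kinase of the T cell receptor, stood at 1.45 (1.25 to 1.62) and 1.32 (1.16 to 1.47). In all 7 of these genes every set 2 sum lay above every set 1 sum.

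Within the side that leaned to set 2, some genes went the other way. Npas2 (chr1:39193702-39363240), a bHLH-PAS transcription factor related to Clock, had 32 of 32 regions higher in set 1, 22 of them separated. Its sums were 3422, 3482 and 3308 against 1941, 1934 and 2080. The sets were far apart, at a ratio of 1.71 (1.59 to 1.80), and regions covered 10.0% of the gene. Il1r2, the decoy receptor of interleukin 1, had 14 of 14 higher in set 1, with sums of 898, 837 and 894 against 455, 459 and 489 and a ratio of 1.87 (1.71 to 1.97). It lies in the longest run toward set 1 on this side, 72 regions from 39781001 to 40556150. Creg2, Neurl3 and Fer1l5 also had separated sums with set 1 higher, at ratios of 1.38 (1.30 to 1.48), 1.53 (1.27 to 2.05) and 1.20 (1.15 to 1.27).

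Other genes on this side were mixed or low. Gpr45, an orphan G protein-coupled receptor at the 43 Mb turn of the lean, had 23 of 44 regions higher in set 1, and its sums overlapped at a set 2 over set 1 ratio of 1.04 (0.981 to 1.12). Fam178b had 23 of 52 higher in set 1, 16 separated toward set 1 and 15 toward set 2, and summed to 1.07 (1.01 to 1.16) toward set 2. Sema4c, a semaphorin, showed the largest ratio toward set 1, 5.45, on sums of only 103, 88 and 109 against 9, 13 and 33, so that the pair range ran from 2.67 to 12.1. Its regions covered 0.83% of the gene, and most lay outside the span, in the flank of 2 kb toward Fam178b. Dnah7b and Dnah7c are near copies of Dnah7a, all axonemal dynein heavy chains. Whether reads were shared between these copies was not tested, and the values of all 3 genes are uncertain for that reason.

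After 50 Mb, 19 of 68 named genes (27.9%) carried a listed region, against 32.0% of all named genes. Of these 19, 17 had the larger sum in set 1, 16 with separated sums. Hecw2 (chr1:53806872-54195034), a HECT-type ubiquitin ligase, had the most regions, and 97 of 97 were higher in set 1, 89 of them separated. Set 1 summed to 9334, 9329 and 8925 and set 2 to 3069, 3126 and 3509. This was the strongest lean to set 1 on this side, 2.84-fold (2.54 to 3.04), over regions that covered 11.1% of the gene. The largest of them, at chr1:53895151-53903250, had 2165, 2186 and 2178 against 529, 658 and 715 in the authors' deposited table.

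Cdk15 (chr1:59256861-59352497), a cyclin-dependent kinase, was covered over 67.2% of its length by 59 regions, all higher in set 1 and 53 of them separated. Its sums were 14650, 14318 and 13961 against 6747, 7069 and 6990, a ratio of 2.06 (1.97 to 2.17) with no overlap. Its largest region had 2649, 2694 and 2563 against 1120, 1367 and 1338 in the authors' deposited table. The gene sits in the longest run of 1 direction on this side, 261 regions from 59128051 to 59622200. The longest region of the interval, at chr1:59525051-59540850, lies further along this run, 38.1 kb from Fzd7, a Wnt receptor gene that itself carried no listed region. It had 4340, 4484 and 4268 against 2884, 2841 and 2685 in the authors' deposited table.

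Stat4 (chr1:51987106-52107189), a transcription factor of interleukin 12 signalling, had 58 of 66 regions higher in set 1 and 61.8% of its length covered. Its sums were 16757, 17379 and 16588 against 12514, 12247 and 12129. They did not overlap, but the ratio of 1.38 (1.33 to 1.43) was smaller than in Hecw2 and Cdk15, and 5 regions were separated the other way, the one over its upstream start included. The neighbours Nemp2, a nuclear envelope protein gene, and Mfsd6, a transporter-like gene, had 35 of 35 and 34 of 34 regions higher in set 1, at ratios of 2.14 (1.81 to 2.47) and 1.96 (1.81 to 2.13).

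The aldehyde oxidases, a cluster of molybdenum-containing enzymes that oxidise aldehydes and drugs, showed the lean gene by gene. Aox1 carried no listed region, and Aox3, Aox4 and Aox2 were higher in set 1 in 33 of 35, 22 of 23 and 29 of 29 regions. Aox2 had sums of 2884, 2541 and 2778 against 1260, 1347 and 1183, a ratio of 2.16 (1.89 to 2.44). Aox3 and Aox4 stood at 1.67 (1.50 to 1.90) and 1.38 (1.25 to 1.48), and all 3 genes had separated sums.

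The exceptions after 50 Mb were Mstn, Dnah7a and Spats2l. Mstn, the gene of myostatin, an inhibitor of muscle growth, had 3 of 6 regions higher in set 1, and its sums of 906, 662 and 676 against 764, 760 and 659 overlapped. Its ratio of 1.03 (0.866 to 1.37) toward set 1 turned toward set 2 when the sets were scaled to equal sums over all listed regions, a step that lowers every log2 ratio by 0.19. Dnah7a, with the same uncertainty as its copies, had 17 of 27 regions higher in set 2 and sums 1.21 times higher there (1.09 to 1.46), and it holds the longest run toward set 2 on this side, 8 regions from 53486401 to 53591550. Spats2l had 5 of 6 regions higher in set 2, with a ratio of 1.37 (1.13 to 1.70).

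**Figure D4:**
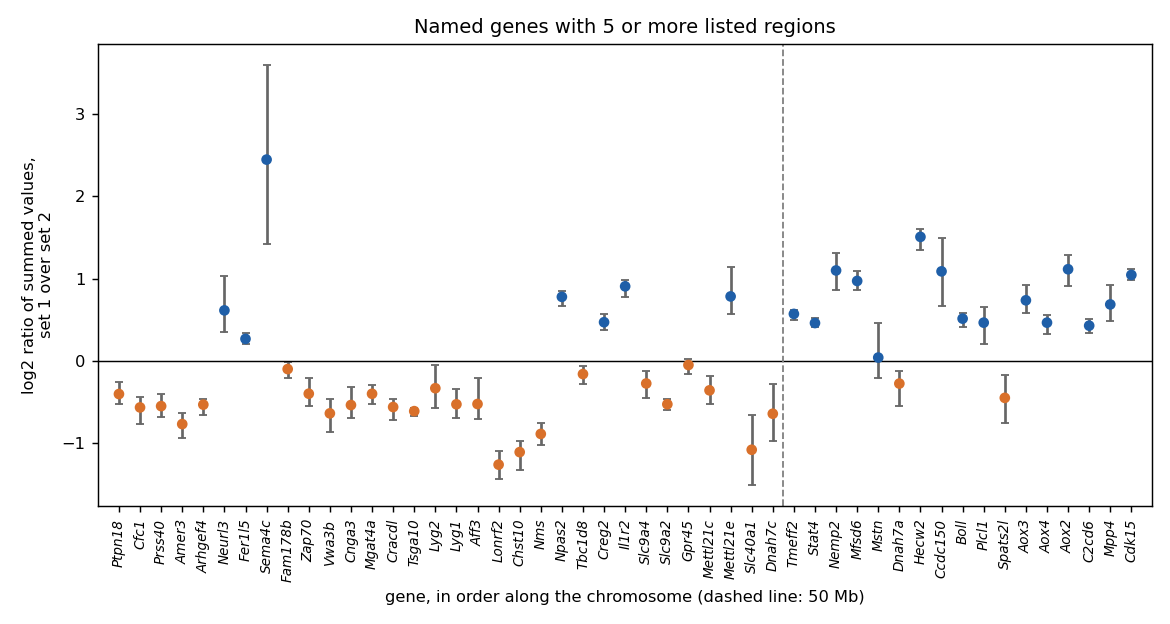
Log2 ratio of summed values, set 1 over set 2, for the 49 named genes with 5 or more listed regions, in order along the chromosome, with bars from the lowest to the highest of the 9 library quotients. Left of the dashed line at 50 Mb, Lonrf2 and Chst10 are the lowest and Npas2 and Il1r2 stand above 0, as does Sema4c with its wide bar, and on the right Hecw2 is the highest and Dnah7a and Spats2l lie below 0.

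Of the 76 gene list members in the interval, 25 (32.9%) carried a listed region, against 59 of all 169 named genes there (34.9%). Over all 59 genes with regions the median log2 ratio was 0.04, made up of −0.38 before 50 Mb and 0.69 after. Of 5 glycan and sulfation enzymes, Mgat4a and Chst10 carried regions, both with set 2 higher and a median of −0.76. Of 6 genes of the interleukin 1 receptor family, 1 (Il1r2) did, at 0.91. Of 4 aldehyde oxidases 3 did, with a median of 0.74. The 4 of 6 ion and metal transporters with regions had a median of −0.40 and ranged from −1.08 to 1.77, with Slc9a4, Slc9a2 and Slc40a1 leaning to set 2. The high end was Slc39a10, a zinc importer, on 3 small regions.

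Of 11 neuronal and signalling genes 7 carried regions (median 0.46), and among them the sums of Creg2, Hecw2 and Plcl1 were separated toward set 1 and those of Arhgef4 and Nms toward set 2. Of 10 developmental regulators, 4 did (median −0.04), with Npas2 and Rfx8 leaning to set 1 and Aff3 and Pou3f3, a POU factor of the developing nervous system, to set 2. Aff3 did so by its sums alone, as 3 of its 5 regions were higher in set 1. The 4 regions of Pou3f3 all lay in the 2 kb flanks and covered 0% of its span. Stat4 and Spats2l were the 2 of 4 STAT and interferon genes, in opposite directions. Tmeff2 and Mstn were the 2 of 7 genes in the BMP, TGF-beta and Wnt list, and Mstn was the 1 of 7 in the fibroblast matrix list. None of 14 housekeeping genes, Sf3b1, Hspd1 and Rpl31 among them, and none of 4 apoptosis genes, such as Casp8, overlapped a listed region.

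The largest regions kept to the lean of their side. The 6 with the largest sums before 50 Mb were all higher in set 2, by 1.21 to 2.40 times, and the 6 after 50 Mb all higher in set 1, by 1.42 to 2.07 times. Some of them are neighbours, in and between Lonrf2 and Chst10 or in and beside Cdk15, and so are not separate cases. Their values are among those that chose the interval. Large ratios came from short regions instead. They were ranked only among separated regions whose 6 values added up to at least 200, and smaller regions can exceed them. The largest after 50 Mb in this ranking, at chr1:59449501-59449950 near Fzd7, had 96, 110 and 107 against 0, 11 and 16 in the authors' deposited table. The largest before it toward set 2, at chr1:41190701-41191050 in land 334 kb from the nearest named gene, had 15, 14 and 1 against 65, 70 and 77 in the authors' deposited table. Both are separated, and both rest on values so small that the size of the ratio is loose.

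Most listed bases lay outside the spans of named protein-coding genes. These spans held 35.5% of the listed bases before 50 Mb and 38.9% after, against 39.3% over the whole series. A listed region reached 28 of 209 promoters before 50 Mb and 13 of 121 after, and the region was higher in set 2 in 23 of the 28 and higher in set 1 in 11 of the 13. The promoters it reached were poor in CG, with a median of 3 CG against 13 in those it did not reach. Of those it reached, 19.5% held at least 10 CG, against 50.9% of all promoters in the interval. The share of promoters reached over the whole series, and their CG content, are not given here. Nothing particular to this interval is therefore read from these promoter counts. Lonrf2, Chst10 and Arhgef4 were among the 8 CG-rich ones.

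Neighbouring regions had the same direction in 80.8% of pairs before 50 Mb and 90.2% after, against 80.4% over the whole series. Such agreement rises wherever 1 direction prevails, so the higher share after 50 Mb is not read as closer grouping of neighbours. The lean to set 1 went on beyond the interval into 60 to 61 Mb, where 79.2% of 125 regions were higher in set 1, and was gone from 61 to 62 Mb, where 5.51% of 127 were. Between 29 and 30 Mb there was no listed region, and over the rest of chromosome 1, 74.8% of regions were higher in set 1. The 2 most similar intervals, also chosen for a turn of lean, were described the same way with 1 Mb bins. On chromosome 2 beyond 120 Mb the mean share higher in set 1 went from 84.9% to 27.9% between the bins starting at 132 and 133 Mb, and on chromosome 7 from 80 to 140 Mb it went from 67.7% to 32.6% between those at 101 and 102 Mb. There 100 kb bins moved the place by at most about 1 Mb.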

How the data were processed

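H3K27me3 immunoprecipitated chromatin of 3T3 cells was sequenced in 6 libraries, with 2 inputs. The deposited table holds, per region, values for 3 and 3 libraries that the authors had already scaled and rounded, as far as the values show, so they were not used as raw counts. The submitters' processing notes name the build GRCm38 and the tools BWA 0.7.17, Trimmomatic 0.36 and CASAVA. No source used here names the region caller, the scaling or any input correction.

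All listed regions were used and the authors' p was ignored. Python 3.11.15 with pandas 2.3.3 and numpy 2.4.6 summed values by 1 Mb window and by gene (RefSeq span and 2 kb on each side). Log2 ratios of single regions have a pseudocount of 1. The switch was placed at the split of bins with the smallest summed squares around the 2 means. No test across regions was run, since the regions were selected by these values. The overlap step was checked against a region-by-region comparison for a sample of the genes. The split step was checked on simulated directions, by share and with 1 Mb bins only.

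The members and the 11 gene lists were chosen with earlier results of these data known. Named were Lonrf2 and Chst10, list members with a region, the largest, longest and most different regions of each side, and the 8 genes a side with most regions. Some genes this rule selects are left out of the text.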

Additional observations from a re-analysis of the deposited data

How the results depend on the processing

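The directions of both sides held under every alternative run. The interval and its split were chosen on the same values, so this adds no support for the switch. Separated regions are also picked by the difference itself. Scaling both sets to equal sums over all listed regions moved the log2 ratio to −0.53 before and 0.51 after 50 Mb, because that scaling lowers every ratio alike. Keeping separated regions alone gave 26.5% and 95.8% of regions higher in set 1 before and after 50 Mb and a log2 ratio of 0.77 after it, and keeping the authors' p under 0.05 gave 27.6% before. With regions of 500 bp or longer the share after 50 Mb was 94.1%. Leaving out the 10 largest regions a side gave log2 ratios of −0.31 before and 0.71 after 50 Mb, within their range over library pairs. The shares higher in set 1 were then 30.4% and 92.9%, and no spread between libraries was set for them. Windows of 500 kb leaned to set 2 in 23 of 33 cases before 50 Mb and windows of 2 Mb in 7 of 9, which differs from 13 through the number of windows, and after 50 Mb no window did at either size. The place of the switch was the least stable result, with the first bin after the split starting at 43 Mb (share) and 43.2 Mb (log2 ratio) for 100 kb bins against 50 Mb for 1 Mb bins. Leaving out 1 library at a time gave log2 ratios of −0.36 to −0.31 before and 0.69 to 0.73 after 50 Mb, and 12 to 14 windows leaning to set 2. A pseudocount of 10 kept the 28 named regions within their range over library pairs.

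No paired analysis was possible because the table does not say which value belongs to which numbered replicate. Depth is unknown, so for regions with small values counting error could not be set apart from differences between libraries.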
